A study of Arabidopsis thaliana with 30 samples.

Results

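The blue light response of wild-type Arabidopsis thaliana was read from 4 of the 30 RNA-seq libraries of a filtered-sunlight experiment, chosen by title as the Landsberg erecta (Ler) libraries under the UV0 and blue0 filters. All expressed genes were compared, 19980 of the 34212 loci in the table. Plants were raised indoors at a 12 h photoperiod and then stood outdoors under long-pass filters for 6 h, from sunrise until solar noon, when rosettes about 3 weeks old were harvested. UV0 is named for the absence of UV and blue0 for the absence of blue light, and the labels give no cut-off wavelengths. The step from blue0 to UV0 (UV0 minus blue0) is called the blue step here. A long-pass filter that removes blue light also lowers the total amount of light, so blue light and light quantity cannot be told apart. The Ler UV0 group and the Ler blue0 group held 2 libraries each, and every library combined RNA from 2 field blocks, where 5 rosettes had been pooled for each block. The same step was read in 4 libraries of uvr8-2, a mutant of the UV-B receptor UVR8, and in 4 libraries of cry1cry2, a double mutant of cryptochromes 1 and 2. These mutants had the same age, filters and outdoor day as Ler, and the series was made to ask what these receptors contribute to gene expression in sunlight.

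Plants sense blue light chiefly through cryptochromes and phototropins. Activated cryptochromes inhibit the COP1-SPA ubiquitin ligase, which lets the transcription factor HY5 accumulate, and they bind PIF factors, which promote stem and petiole growth. In leaves, blue light is known for raising flavonoid and photoprotection genes and for restraining elongation growth. It also drives photosynthesis, so that sugar status and the redox state of the chloroplast change with it.

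Library totals were 12109222 and 17519473 estimated counts for Ler UV0 and 16556939 and 15071378 for Ler blue0, within the range of 12109222 to 22865826 over all libraries. Levels are CPM, counts scaled to a common library total and corrected by TMM factors, and fold changes are log2 values with standard errors. Where a level over a group is given, it is the mean ± SD with n = 2. Chloroplast loci took 0.236% and 0.559% of the counts under UV0 and 0.123% and 0.253% under blue0. Among 6 floral organ markers, 4 stayed below the filter on low counts, as did 2 of 3 root markers, and the root hair factor RHD6 had 0 counts in all 4 libraries. Of 5 guard cell and vascular markers, KAT1, a guard cell potassium channel, was called higher under UV0 (0.49), though not without Ler blue0 replicate 2 (0.30) or Ler UV0 replicate 1 (0.39), and the others were not called, with values between -0.09 and 0.13. In bulk rosettes, fewer cells of a type and less RNA per cell cannot be told apart.

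Under UV0, 1939 genes were higher than under blue0 and 1685 were lower, together 3624 or 18.1% of all genes tested (edgeR's quasi-likelihood test, Benjamini-Hochberg adjusted p under 0.05). The higher genes made up 9.7% of those tested and the lower genes 8.43%. Counts of called list members below stand beside these shares. Most differences were small. The median log2 fold change was 0.64 among the higher genes and -0.56 among the lower ones, against -0.01 over all genes tested. Large rises were more frequent than large falls: 89 genes were at least 4-fold higher and 49 at least 4-fold lower, while 38 were at least 8-fold higher and 7 at least 8-fold lower. With 2 libraries a group the number of calls depended on each library. It was 1655 without Ler blue0 replicate 1, 2323 without Ler blue0 replicate 2, 2174 without Ler UV0 replicate 1 and 1683 without Ler UV0 replicate 2. Genes called in all 4 of these fits are by construction no more than those called in any 1 of them, so that is no separate result. The lone library left in a group was there assumed to vary like the other groups.

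**Figure D1:**
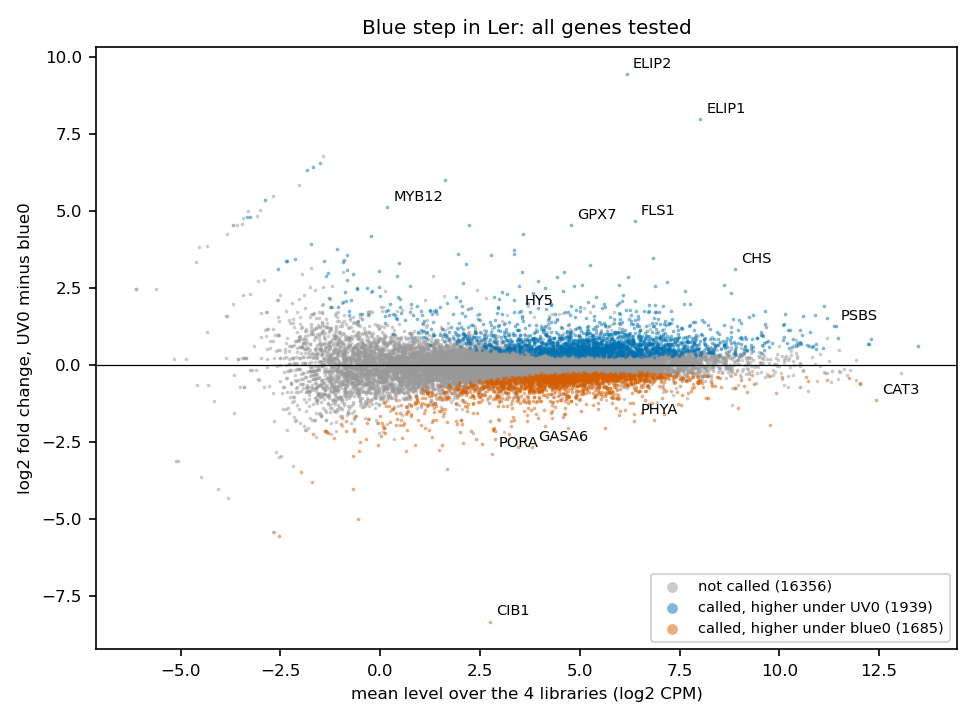
Each point is a gene tested at the blue step in Ler, with its mean level over the 4 libraries (log2 CPM) on the x axis and its log2 fold change, UV0 minus blue0, on the y axis; genes at 0 in all 4 libraries are not drawn. The 1939 genes called higher under UV0 are blue, the 1685 called higher under blue0 are orange, and ELIP2, ELIP1 and CIB1 lie farthest out among the labelled genes.

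The largest rises at the blue step belonged to the early light-induced proteins, pigment-binding proteins of the thylakoid membrane that appear under excess light. ELIP2 (AT4G14690) stood at 133 and 156 CPM in the UV0 libraries and at 0.22 and 0.18 CPM in the blue0 libraries. ELIP1 (AT3G22840) stood at 428 and 602 CPM under UV0 and at 2.3 and 1.73 CPM under blue0. In both genes the lowest UV0 library was far above the highest blue0 library, and the log2 fold changes were 9.44 ± 1.02 for ELIP2 and 7.99 ± 0.57 for ELIP1 (edgeR quasi-likelihood, adjusted p = 1.27e-05 and 9.77e-08). ELIP2 had only 7 counts over the blue0 libraries, so its fold is imprecise. PSBS (AT1G44575), the photosystem II protein needed for rapid thermal dissipation, measured 3701 and 3772 CPM under UV0 and 1537 and 1580 CPM under blue0. Its replicates nearly coincided, and it rose by 1.26 ± 0.11 (adjusted p = 1.28e-07). OHP2, a light-harvesting-like protein, rose by 1.04 ± 0.11 from 66.1 and 62.7 CPM to 132 and 133 CPM. Of the 13 listed light-stress and plastid sigma factor genes, 6 rose and 0 fell, with a median of 0.53. Among all genes tested, 9.7% rose and 8.43% fell. SIG5, a sigma factor of the plastid RNA polymerase that is known to respond to blue light, measured 112 and 65.6 CPM under UV0 and 31.9 and 21.1 CPM under blue0. The groups did not overlap, but the spread was wide and SIG5 was not called (1.74 ± 0.64, edgeR quasi-likelihood adjusted p = 0.0754).

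**Figure D2:**
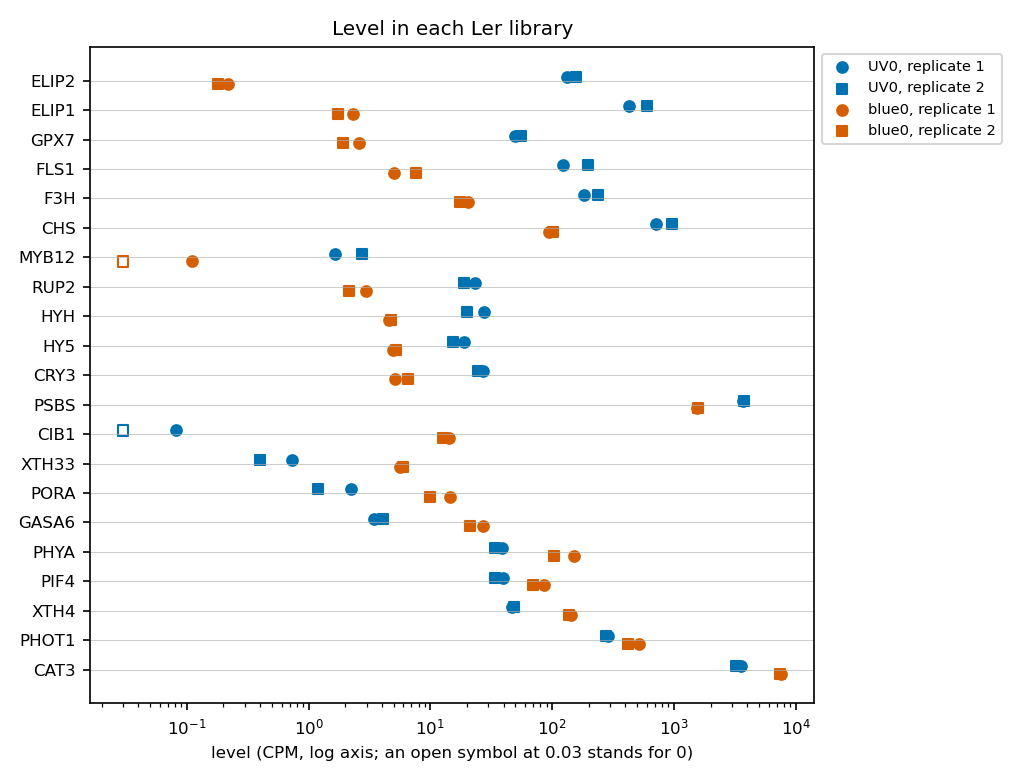
Level in each of the 4 Ler libraries (CPM, log axis) for 21 genes described in the text, with UV0 in blue and blue0 in orange, circles for replicate 1 and squares for replicate 2; an open symbol stands for 0. For each gene drawn both libraries of 1 filter lie above both of the other, as in 59.99% of all genes tested. The genes were chosen with their values known, and the rule for the largest changes asked for it.

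Most enzymes of flavonoid synthesis rose. Of 22 enzymes of phenylpropanoid and flavonoid synthesis, 18 rose and 1 fell, with a median log2 fold change of 1.61 against -0.01 over all genes. FLS1 (AT5G08640), flavonol synthase, measured 122 and 197 CPM under UV0 and 5.05 and 7.58 CPM under blue0. Its groups were far apart, and the rise was 4.66 ± 0.42 (edgeR quasi-likelihood, adjusted p = 1.12e-06). F3H, flavanone 3-hydroxylase, stood at 183 and 239 CPM against 20.4 and 17.7 CPM (3.47 ± 0.39). CHS (AT5G13930), chalcone synthase, the entry enzyme of the pathway, stood at 718 and 970 CPM under UV0 and at 93.9 and 102 CPM under blue0. The CHS groups differed by 3.11 ± 0.30 (edgeR quasi-likelihood, adjusted p = 1.3e-06). The chalcone isomerase genes CHI (1.89) and CHIL (2.85), the ligase 4CL3 (2.58) and the lyases PAL1 (1.98) and PAL2 (1.94) rose too, as did the anthocyanin enzymes DFR (1.32) and LDOX (1.19). The sugar transferase UGT78D3 was among the 12 genes with the largest rises (3.56 ± 0.53), with 6.64 and 18.6 CPM against 0.93 and 1.25 CPM. SNG1, which makes sinapoylmalate and so draws on the same phenylpropanoids, was the listed enzyme that fell (-1.58). PAL3, PAL4 and 4CL2 were not called (-0.35 to 0.03). With any of the 4 libraries left out, 16 or 17 enzymes were called higher and 1 lower.

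Among 11 flavonoid regulators 9 rose and 0 fell, with a median of 1.03. MYB12 (AT2G47460), an R2R3-MYB activator of flavonol genes, measured 1.64 and 2.74 CPM under UV0 and 0.11 and 0 CPM under blue0. With 2 counts under blue0 against 68 under UV0, the ratio was 40.0, with an exact 95% interval of 10.7 to 337 that covers counting error only. Its relatives MYB11 (2.95 ± 0.65) and MYB111 (1.96) rose as well, as did the anthocyanin regulators MYB75 (1.18), MYB90 (2.40 ± 0.52), TT8 (1.03) and GL3 (0.86). MYB90 was uneven under UV0, with 0.57 and 2.34 CPM against 0.27 and 0.30 CPM under blue0. These transcription factors are expressed at low levels, and their calls were less stable than those of the enzymes. Without Ler UV0 replicate 2, 0 of the 11 regulators were called (median 0.95), and MYB90 then stood at 0.99. With each of the other 3 libraries left out, 5 or 6 were called. The repressor MYBL2 (-0.02) and the WD40 protein TTG1 (-0.06) were not called.

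Of 10 HY5 and COP1-SPA genes 6 rose and 0 fell, with a median of 0.57, where 9.7% of all genes rose and 8.43% fell. HY5 (AT5G11260), the bZIP factor that promotes photomorphogenesis, measured 18.8 and 15.2 CPM under UV0 and 4.94 and 5.25 CPM under blue0. Its homolog HYH measured 27.5 and 19.8 CPM against 4.61 and 4.78 CPM. RUP2, a WD40 protein that returns UVR8 to its inactive form, measured 23.3 and 18.8 CPM against 2.96 and 2.15 CPM. In these 3 genes every UV0 library was over 2 times the highest blue0 library. They rose by 1.73 ± 0.28 (HY5), 2.32 ± 0.36 (HYH) and 3.03 ± 0.31 (RUP2), with edgeR quasi-likelihood adjusted p between 1.98e-06 and 0.000283. The ligase genes COP1 (0.35 ± 0.12) and SPA1 (0.46 ± 0.13) rose slightly. COP1 was not called without Ler blue0 replicate 1, Ler blue0 replicate 2 or Ler UV0 replicate 1 (0.18 to 0.40), nor was SPA1 (0.28 to 0.50). Of the 10 genes, 3 were called without Ler blue0 replicate 1, 3 without Ler UV0 replicate 1 and 4 or 6 without the others. UVR8 itself was not called (0.09). Among 21 B-box zinc-finger factors, which act with or against HY5, BBX22 rose (0.996 ± 0.145) and BBX21, BBX15 and COL4 fell, 4 calls where 18.1% of all genes were called. The falls numbered 1 without Ler blue0 replicate 1 and 1 without Ler UV0 replicate 2, where BBX15 lost its call (-0.42 and -0.45), and COL4 lost its call without each of the 4 libraries (-0.42 to -0.59). BBX21 measured 18.9 and 16.7 CPM under UV0 and 39.8 and 31.2 CPM under blue0 (-0.998 ± 0.124). BBX31 had a larger difference (2.43) but was not called, and BBX17, which the list leaves out, fell by 2.25 on the log2 scale.

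Photoreceptor genes moved in both directions. Of 13 genes for blue-light receptors and their partners, 3 rose and 4 fell, with a median of -0.12. Over all genes tested, 9.7% rose and 8.43% fell. The cryptochrome gene CRY1 measured 88.0 and 80.2 CPM under UV0 and 135 and 108 CPM under blue0, a fall of 0.53 on the log2 scale (adjusted p = 0.0024). Without Ler blue0 replicate 1 it stood at -0.36 and was not called, and 2 of the 13 genes were then called lower. CRY2 measured 77.2 and 88.8 CPM against 113 and 115 CPM and was not called (-0.45 ± 0.18, adjusted p = 0.089, edgeR's quasi-likelihood test). PHOT1, the phototropin that steers phototropism, measured 288 and 275 CPM under UV0 and 515 and 417 CPM under blue0. It fell by 0.73 on the log2 scale, and its signalling partner RPT2 fell too (-1.07), a call lost without Ler blue0 replicate 1 (-0.80) and Ler UV0 replicate 2 (-0.76). PHOT2 was not called (-0.05), while ZTL, an F-box blue-light receptor of the clock, was called higher (0.44), a call lost without each of the 4 libraries (0.40 to 0.50). AT3G52740 rose from 10.03 and 10.62 CPM to 28.9 and 23.5 CPM (1.34 ± 0.21) and AT3G44450 from 61.3 and 67.5 CPM to 123 and 113 CPM (0.88 ± 0.16).

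CIB1 (AT4G34530), a bHLH factor that binds cryptochrome 2 in blue light, had the largest fall of all named genes. It measured 0.08 and 0 CPM under UV0 and 14.2 and 12.7 CPM under blue0, which is 1 count against 471. The ratio of blue0 to UV0 was 400.0, with an exact 95% interval of 71.4 to 15830 for counting error. CIB1 overlaps AT4G34540 in the reference annotation, and its reads may be shared, since no source used here gives the strand setting of the counting. Among the 5 phytochromes, PHYA (AT1G09570), the light-labile far-red receptor, measured 39.0 and 33.7 CPM under UV0 and 152 and 103 CPM under blue0. PHYA fell by 1.81 on the log2 scale (edgeR quasi-likelihood, adjusted p = 1.03e-06). PHYE rose slightly (0.45 ± 0.15, adjusted p = 0.0489), a call held without Ler UV0 replicate 2 and lost without each of the other 3 libraries (0.25 to 0.49). PHYB (0.38), PHYC (0.12) and PHYD (-0.05) were not called in edgeR's quasi-likelihood test.

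Photolyases repair UV-damaged DNA with the energy of blue or UV-A light. CRY3 (AT5G24850), a cryptochrome-DASH photolyase of organelles, measured 26.8 and 24.8 CPM under UV0 and 5.1 and 6.51 CPM under blue0. The groups stood far apart, and CRY3 rose by 2.15 ± 0.18 (edgeR quasi-likelihood, adjusted p = 7.9e-08). PHR1 (AT1G12370), the photolyase of cyclobutane pyrimidine dimers, measured 6.48 and 7.19 CPM against 3.73 and 3.52 CPM and rose by 0.92 ± 0.25. Its call was lost without Ler blue0 replicate 1 (0.97), without Ler blue0 replicate 2 (0.89) and without Ler UV0 replicate 2 (0.84). UVR3, the photolyase of pyrimidine-pyrimidone photoproducts, had overlapping groups and was not called (0.12 ± 0.48).

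The promoter windows of 4 of the genes described above are shown because each rose at the blue step and holds a G-box, the palindrome CACGTG to which bZIP factors such as HY5 and bHLH factors such as the PIFs are known to bind. Each window is the 250 bases before the annotated gene start, 5′ to 3′ on the gene's strand, from RefSeq's TAIR10.1 assembly, found by locus code. That assembly is of the Columbia accession whereas the plants were Ler, and no source used here names the authors' build. The windows are chr3:8085670-8085919 on the minus strand, chr5:4488226-4488475 on the plus strand, chr2:19476076-19476325 on the plus strand and chr1:4209000-4209249 on the minus strand. Capitals mark the G-box and, in ELIP1, also an I-box (GATAAG on the opposite strand).
ELIP1: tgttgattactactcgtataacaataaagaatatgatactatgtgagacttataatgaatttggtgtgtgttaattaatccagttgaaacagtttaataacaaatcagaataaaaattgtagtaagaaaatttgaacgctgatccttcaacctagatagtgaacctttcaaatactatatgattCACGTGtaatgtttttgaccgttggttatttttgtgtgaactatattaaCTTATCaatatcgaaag
CHS: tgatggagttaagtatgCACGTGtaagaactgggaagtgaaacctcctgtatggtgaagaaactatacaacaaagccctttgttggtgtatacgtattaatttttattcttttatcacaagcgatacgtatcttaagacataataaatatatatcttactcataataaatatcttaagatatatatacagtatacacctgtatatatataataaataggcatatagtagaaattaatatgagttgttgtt
MYB12: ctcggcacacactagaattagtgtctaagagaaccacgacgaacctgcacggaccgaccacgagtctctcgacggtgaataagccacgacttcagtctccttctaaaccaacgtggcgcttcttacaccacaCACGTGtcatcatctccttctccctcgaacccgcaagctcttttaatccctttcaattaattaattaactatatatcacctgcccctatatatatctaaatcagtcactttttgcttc
PHR1: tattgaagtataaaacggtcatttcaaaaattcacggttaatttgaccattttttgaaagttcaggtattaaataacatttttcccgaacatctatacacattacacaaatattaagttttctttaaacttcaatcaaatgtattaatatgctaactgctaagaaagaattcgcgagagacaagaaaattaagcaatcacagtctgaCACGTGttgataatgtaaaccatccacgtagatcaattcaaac

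The G-box began 66 bases before the annotated start in ELIP1, 233 in CHS, 118 in MYB12 and 43 in PHR1. Among the named genes with a window, 7 of 49 that rose and 0 of 33 that fell held a G-box. Over the 19847 genes tested that had a window, 7.35% held a G-box on either strand. Its share was 8.07% among the genes that rose and 7.73% among those that fell, both near that background. Among genes changed at least 2-fold it was 11.3% for rises (exact 95% interval 8.35 to 14.8%) and 5.56% for falls (3.21 to 8.87%). The ACGT core, which every G-box contains, was in 44.1% of all windows, 43.4% for rises and 45.7% for falls. Among genes changed at least 2-fold it was in 54.4% of the windows of those higher and 45.1% of those lower. The evening element AAAATATCT, known from clock-controlled genes, was in 2.56% of all windows, 3.15% of the windows of genes that rose and 1.61% of those of genes that fell. The I-box was in 12.4% of all windows, 11.1% for rises and 14.5% for falls. A match is a description of letters, not a binding site, and no match says nothing about a factor.

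The PIF, shade and auxin genes that were called all fell. Of 15 PIF factors and shade targets 0 rose and 7 fell, with a median of -0.75, and of 15 auxin genes tested 0 rose and 7 fell, with a median of -1.11. PIF4 (AT2G43010), a bHLH factor that drives elongation, measured 39.9 and 34.0 CPM under UV0 and 85.0 and 69.6 CPM under blue0. PIF4 fell by 1.07 on the log2 scale (edgeR quasi-likelihood, adjusted p = 1.32e-05). PIF1 (-0.85), PIF3 (-0.64) and PIF5 (-0.75) fell too, and PIF7 was not called (0.23). PIF1 lost its call without Ler UV0 replicate 2 (-0.68), and PIF5 without that library (-0.57) and without Ler blue0 replicate 1 (-0.50). The auxin-response gene IAA2 measured 41.2 and 35.5 CPM against 85.4 and 77.1 CPM (-1.08 ± 0.19), and IAA19 fell as well (-1.40). YUC8, which makes auxin, fell from 7.51 and 5.01 CPM to 2.71 and 1.08 CPM (-1.78 ± 0.43), a call lost without Ler blue0 replicate 1 (-1.45) and without Ler UV0 replicate 2 (-1.21). The auxin conjugating enzyme GH3.3 fell (-1.41 ± 0.31) and lost its call without the same libraries (-1.05 and -1.17), as did IAA19 (-1.14 and -1.22). The auxin list held 2 calls without Ler blue0 replicate 1, 4 without Ler UV0 replicate 1 and 1 without Ler UV0 replicate 2. The PIF list held 3 without Ler UV0 replicate 2 and 5 or 6 in the other 3 fits. The shade markers HB2 (-0.25), HFR1 (-0.86) and PIL1 (-0.37) were not called.

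Most wall-loosening genes that were called fell, while gibberellin genes moved in both directions. Of 18 wall-loosening genes 1 rose and 7 fell, with a median of -0.56. XTH4, a xyloglucan endotransglucosylase, measured 47.1 and 48.3 CPM under UV0 and 143 and 136 CPM under blue0. Both pairs of replicates were close, and XTH4 fell by 1.55 on the log2 scale (adjusted p = 6.97e-07). XTH33, of the same family, fell by 3.39 on the log2 scale, from 5.59 and 5.97 CPM to 0.74 and 0.40 CPM. EXPA8 (-1.99) and EXPA1 (-0.98), expansins that loosen walls, fell, while EXPA5 rose (0.62). EXPA1 was not called without Ler blue0 replicate 1 (-0.64) or Ler UV0 replicate 2 (-0.82). Of 9 gibberellin genes tested 2 rose and 2 fell, with a median of -0.34, where 9.7% of all genes rose and 8.43% fell. The gibberellin-deactivating oxidases GA2OX1 (3.61 ± 0.37) and GA2OX8 (2.19 ± 0.43) rose. GA2OX1 measured 7.21 and 6.96 CPM against 0.38 and 0.78 CPM. The gibberellin-regulated gene GASA6 measured 3.44 and 4.11 CPM under UV0 and 27.2 and 21.2 CPM under blue0 and fell by 2.67 on the log2 scale. GASA1 fell too and kept its call without Ler blue0 replicate 1 alone (-0.65 to -0.79 with 1 library left out). BEE3, a bHLH growth factor, fell from 10.9 and 9.13 CPM to 1.72 and 1.66 CPM (-2.56 ± 0.34), all by edgeR's quasi-likelihood test.

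**Figure D3:**
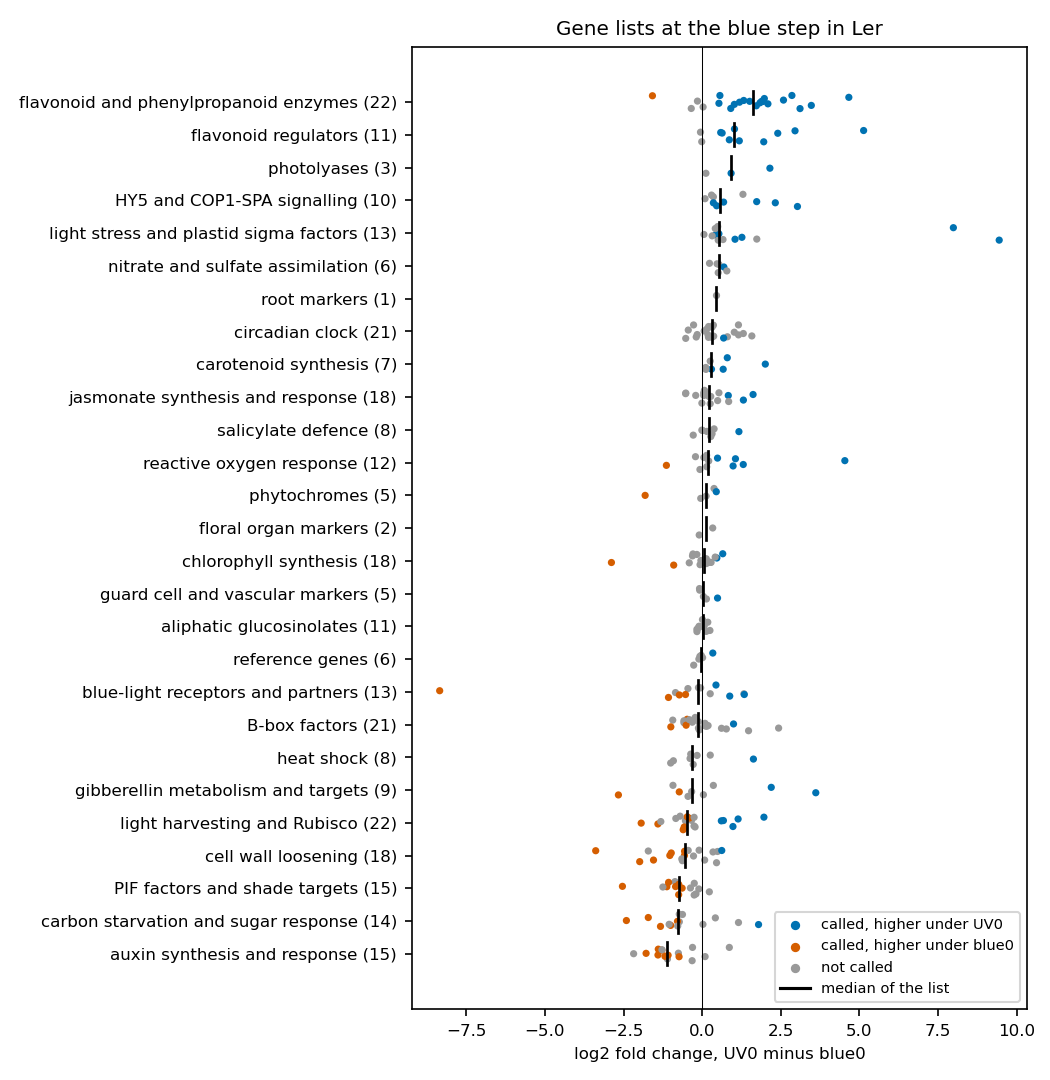
Log2 fold change, UV0 minus blue0, of every tested member of the 27 gene lists in Ler, with the number tested in brackets and a black line at each list's median. Blue points were called higher under UV0, orange points called higher under blue0, and grey points were not called; the flavonoid lists lie to the right and the auxin, carbon starvation, PIF and wall lists to the left.

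Pigment and photosynthesis genes were divided. Of 7 carotenoid genes 4 rose and 0 fell, with a median of 0.29. BCH1, a beta-carotene hydroxylase that leads to the xanthophylls, measured 113 and 90.7 CPM under UV0 and 22.9 and 27.6 CPM under blue0 (2.01 ± 0.21). PDS (0.67) and LUT1 (0.80) rose too. LYC was also called higher and kept its call without Ler blue0 replicate 2 alone (0.22 to 0.39 with 1 library left out). PSY, BCH2 and LUT2 were not called. Of 18 chlorophyll genes 2 rose and 2 fell, with a median of 0.06, where 9.7% of all genes rose and 8.43% fell. The rises, CHLG (0.47) and GUN5 (0.65), were both lost without Ler blue0 replicate 2 (0.42 and 0.46), while CHLG was also lost without Ler UV0 replicate 2 (0.40) and GUN5 without Ler UV0 replicate 1 (0.53). The falls were PORA and PORB, light-dependent protochlorophyllide oxidoreductases. PORA measured 2.21 and 1.2 CPM under UV0 and 14.6 and 9.85 CPM under blue0 (-2.89 ± 0.50), and PORB 590 and 753 CPM against 1223 and 1294 CPM (-0.91 ± 0.23). PORB lost its call without Ler blue0 replicate 2 (-0.85) and without Ler UV0 replicate 1 (-0.73). Of 22 light-harvesting and Rubisco genes 5 rose and 6 fell, with a median of -0.47. The 4 tested Rubisco small subunit genes all rose, by 0.61 to 1.14, although reads of these near-identical copies may be shared. Antenna genes fell or were not called, except LHCB4.3, which rose from 44.8 and 42.4 CPM to 149 and 191 CPM (1.96 ± 0.20). Calls of falls in this list numbered 0 without Ler blue0 replicate 1, 4 without Ler blue0 replicate 2, 2 without Ler UV0 replicate 1 and 0 without Ler UV0 replicate 2, while the 5 rises were called in each.

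Sugar-repressed and antioxidant genes also differed. Of 14 carbon starvation and sugar-response genes 1 rose and 5 fell (median -0.75), where 9.7% of all genes rose and 8.43% fell. TPS8, a trehalose phosphate synthase-like protein, measured 8.45 and 6.17 CPM under UV0 and 27.1 and 20.2 CPM under blue0 (-1.72 ± 0.32). The dark-induced gene SEN1 measured 1.31 and 1.94 CPM against 10.5 and 7.16 CPM (-2.41 ± 0.62) and kept its call without Ler blue0 replicate 2 alone. The list held 2 falls without Ler blue0 replicate 1, 2 without Ler UV0 replicate 1 and 3 without Ler UV0 replicate 2. GPT2, a plastid sugar phosphate transporter, was called higher (1.79), a call lost without each of the 4 libraries (1.56 to 2.00). Among 12 genes of the reactive oxygen response tested, 5 rose and 1 fell. GPX7 (AT4G31870), a chloroplast glutathione peroxidase, measured 49.1 and 55.5 CPM under UV0 and 2.58 and 1.91 CPM under blue0. Its replicates were close, and it rose by 4.54 ± 0.29 (edgeR quasi-likelihood, adjusted p = 1.55e-08). Of the catalases, which break down hydrogen peroxide, CAT3 fell from 7624 and 7372 CPM to 3561 and 3250 CPM (-1.14 ± 0.16), while CAT2 rose from 672 and 582 CPM to 1933 and 1166 CPM (1.305 ± 0.311). CAT2 was not called without Ler blue0 replicate 2 (1.22) or without Ler UV0 replicate 1 (0.91). Without Ler UV0 replicate 2, 2 rises of this list were called, and without each other library 3.

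The following groups held a share of calls near or below the 18.1% called over all genes tested. Of 6 nitrate and sulfate assimilation genes NIR1, nitrite reductase, rose (0.69 ± 0.14) and the others were not called (0.23 to 0.78). Among 21 clock genes GI alone was called (0.68 ± 0.17), and it was not without Ler blue0 replicate 1 (0.60) or Ler UV0 replicate 2 (0.54). The clock genes CCA1 and PRR9 had overlapping groups. CCA1 measured 24.8 and 7.94 CPM under UV0 and 10.8 and 4.95 CPM under blue0. All 11 aliphatic glucosinolate genes stayed uncalled (-0.17 to 0.25). Of 18 jasmonate genes 3 rose, JAZ9 (1.31 ± 0.24), VSP1 (1.62 ± 0.49) and LOX3 (0.83 ± 0.26). JAZ9, a repressor of jasmonate signalling, kept its call without any 1 library, whereas VSP1 and LOX3 kept theirs without Ler UV0 replicate 2 alone (1.00 to 1.92 and 0.47 to 0.94 without the others). Of 8 heat shock genes tested 1 rose, HSP17.6II (1.63 ± 0.45), and it was not called without Ler blue0 replicate 1 (1.34) or Ler UV0 replicate 1 (0.91). Of 8 salicylate defence genes PR5 rose (1.17 ± 0.27) and PR1 (-0.01) and ICS1 (0.02) were not called. PR5 was not called without Ler blue0 replicate 1 (0.81) or without Ler UV0 replicate 2 (1.04), all by edgeR's quasi-likelihood test. Among 6 reference genes ACT2 was called higher (0.34), with the call held without Ler blue0 replicate 2 and lost without each of the other 3 libraries (0.26 to 0.36), and the other 5 were not called (-0.27 to 0.01).

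Other large changes by the naming rule were the rise of the glycosyltransferase DOGT1 (4.26 ± 0.88) and the falls of the wall enzyme XTH15 (-2.54 ± 0.42), the cytochrome P450 CYP96A5 (-2.61 ± 0.48), the ethylene synthesis enzyme ACS8 (-2.39 ± 0.48) and the B-box factor BBX17 (-2.25 ± 0.37). DOGT1 was not called without Ler blue0 replicate 1 (3.92), nor was ACS8 without Ler UV0 replicate 2 (-1.87). Several of the largest changes belonged to loci that carry no symbol in the reference table. AT4G34550 measured 9.92 and 7.94 CPM under UV0 and 0.44 and 0.30 CPM under blue0 (4.55 ± 0.61), and AT4G18422 measured 16.1 and 21.7 CPM against 1.26 and 1.85 CPM (3.61 ± 0.30). AT4G22495 had 3 counts under blue0 and 174 under UV0, a ratio of 68.3 in scaled counts (exact 95% interval 23.0 to 334, counting error only). It was not called without Ler blue0 replicate 1 (6.49) or Ler blue0 replicate 2 (5.69), and it lies across AT4G22505. AT3G51238 (3.74 ± 0.47) overlaps F3H, and its reads may be shared with F3H, since the strand setting of the counting is not given. AT5G57760 fell from 16.2 and 21.7 CPM to 2.62 and 3.25 CPM (-2.67 ± 0.41). AT5G50640 fell (-2.19 ± 0.65), but its call was lost without each of the 4 libraries in turn (-1.92 to -2.61).

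The blue step of Ler was then set beside that of the mutants. In uvr8-2, 3046 genes were called, 15.2% of those tested, of which 1675 were higher (8.38%) and 1371 lower (6.86%) under UV0. It was 1303 in a fit on these 4 libraries and 1382 on those of the genotype. The count was 1649 without uvr8-2 blue0 replicate 2 and 1839 without uvr8-2 UV0 replicate 2. Of the genes that rose in Ler, 1181 rose in uvr8-2, which is 60.9% of the Ler list and 70.5% of the uvr8-2 list. Of those that fell, 926 fell in uvr8-2 (54.96% and 67.54%), and 0 were called in the opposite direction. Tested directly, a difference between uvr8-2 and Ler was called in 0 genes (0.0%) by edgeR's quasi-likelihood test and 0 by DESeq2. At an unadjusted p under 0.05 edgeR's quasi-likelihood test gave 665. On simulated counts the like test for cry1cry2 recovered 28.6% of 2-fold changes, so small differences could be missed. ELIP1 rose by 7.89 ± 0.55 in uvr8-2, CHS by 2.93 ± 0.30 and CRY3 by 2.34 ± 0.17, close to the values of 7.99, 3.11 and 2.15 in Ler. CIB1 fell by 4.57 on the log2 scale in uvr8-2, and its difference from Ler was not called (3.78 ± 2.00, adjusted p = 1).

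The cry1cry2 rosettes still held transcripts of the mutated genes under both filters, with CRY1 at 66.1 ± 5.5 and 70.6 ± 6.6 CPM and CRY2 at 67.2 ± 4.9 and 68.3 ± 0.7 CPM under UV0 and blue0. In this mutant 35 genes were called, 0.175% of those tested, 32 higher (0.16%) and 3 lower (0.015%) under UV0, and all 35 were called in the same direction in Ler. At an unadjusted p under 0.05 there were 1460, and DESeq2 called 99. A fit on the 4 libraries called 54, one on those of the genotype 5, and one with the replicate number as a block 121. The count was 4 without cry1cry2 blue0 replicate 1, 4 without cry1cry2 blue0 replicate 2, 53 without cry1cry2 UV0 replicate 1 and 3 without cry1cry2 UV0 replicate 2. In cry1cry2 the median was 0.21 over the Ler rises and -0.17 over the Ler falls. Of these rises 91.8% lay above 0 in cry1cry2, against 49.9% of all genes tested. Of the falls 90.2% lay below 0, against 50.1% of all genes tested. In uvr8-2 the medians were 0.51 and -0.44. The flavonoid enzymes gave 6 rises and 0 falls in cry1cry2 with a median of 1.09, and 18 and 1 in Ler with a median of 1.61. The difference from Ler was called for 0 of the 22 by edgeR's quasi-likelihood test (8 at an unadjusted p under 0.05) and for 2 by DESeq2. CHS stood at 367 ± 118 CPM under UV0 and 78.8 ± 15.1 CPM under blue0 in cry1cry2 and rose by 2.22 ± 0.29. ELIP1 stood at 99.96 ± 57.53 CPM against 2.46 ± 1.46 CPM (5.39 ± 0.52) and GPX7 at 15.8 ± 9.6 CPM against 0.95 ± 0.02 CPM (4.06 ± 0.33). For none of CHS, ELIP1 and GPX7 was the difference from Ler called (-0.89 ± 0.40, -2.59 ± 0.73 and -0.48 ± 0.49, edgeR quasi-likelihood adjusted p = 0.426, 0.135 and 0.808).

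The test of the difference itself, cry1cry2 minus Ler, called 109 genes (0.546%), 88 with a negative and 21 with a positive difference. DESeq2 called 369, a fit on the libraries of the contrast 232, one on those of both genotypes 205 and one with the replicate number as a block 503. The test shares the 4 Ler libraries with the Ler step, so the direction of these genes in Ler is no separate result. PSBS measured 2058 ± 269 CPM under UV0 and 1520 ± 36 CPM under blue0 in cry1cry2, where it was not called (0.44 ± 0.11), and the difference from Ler was -0.82 ± 0.15 (edgeR quasi-likelihood, adjusted p = 0.0145). LHCB4.3 stood at 50.6 ± 1.3 CPM against 41.0 ± 11.3 CPM in cry1cry2, a difference from Ler of -1.65 ± 0.27 (adjusted p = 0.00731). BCH1 differed by -1.37 ± 0.29 and PDX1.1, an enzyme of vitamin B6 synthesis, by -1.64 ± 0.29. In these 4 genes the UV0 mean of cry1cry2 was below that of Ler. The blue0 means were close for PSBS (1520 CPM in cry1cry2 and 1558 CPM in Ler) and LHCB4.3 (41.0 and 43.6 CPM). At blue0 cry1cry2 stood higher than Ler for BCH1 (34.5 against 25.3 CPM) and PDX1.1 (207 against 110 CPM). For PDX1.1 the UV0 means were 404 CPM in cry1cry2 and 674 CPM in Ler, so both filters contributed to its difference. AT1G47606 and AT1G25230 fell in Ler by 1.81 and 2.08 on the log2 scale and stood at 0.13 and -0.41 in cry1cry2, with differences of 1.94 ± 0.44 and 1.67 ± 0.35. In the growth lists the difference was called for 0 of 15 PIF and shade genes, 0 of 15 auxin genes and 0 of 18 wall genes by edgeR's quasi-likelihood test (4, 3 and 5 at an unadjusted p under 0.05) and for 1, 0 and 1 by DESeq2. Adjusted p was 0.0501 for XTH4 (0.91 ± 0.21) and 0.0984 for PIF4 (0.70 ± 0.19), but 0.237 for YUC8, 0.348 for IAA2 and 0.569 for GH3.3. For the photoreceptor PHYA it was 0.0836 (0.98 ± 0.25). Among the 10 HY5 and COP1-SPA genes the difference was called for 0 by edgeR's quasi-likelihood test (4 at an unadjusted p under 0.05) and for 1 by DESeq2. The count of 109 fell to 1 without cry1cry2 UV0 replicate 1, 2 without Ler blue0 replicate 1, 20 without Ler UV0 replicate 1, 19 without Ler UV0 replicate 2, 57 without cry1cry2 UV0 replicate 2, and 60 and 30 without cry1cry2 blue0 replicates 1 and 2. It was 91 without Ler blue0 replicate 2. PSBS kept a called difference without cry1cry2 blue0 replicate 1, cry1cry2 UV0 replicate 2 or Ler blue0 replicate 2, and lost it without the other 5 libraries in turn (-0.69 to -0.84). BCH1 kept it without cry1cry2 blue0 replicate 1 alone, and LHCB4.3 lost it without cry1cry2 UV0 replicate 1, Ler blue0 replicate 1 or Ler UV0 replicate 2 (-1.46 to -1.69). PDX1.1 lost it without cry1cry2 blue0 replicate 2, cry1cry2 UV0 replicate 1, Ler blue0 replicate 1 or either Ler UV0 library (-1.44 to -1.67), and AT1G47606 and AT1G25230 kept it without Ler blue0 replicate 2 alone.

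**Figure D4:**
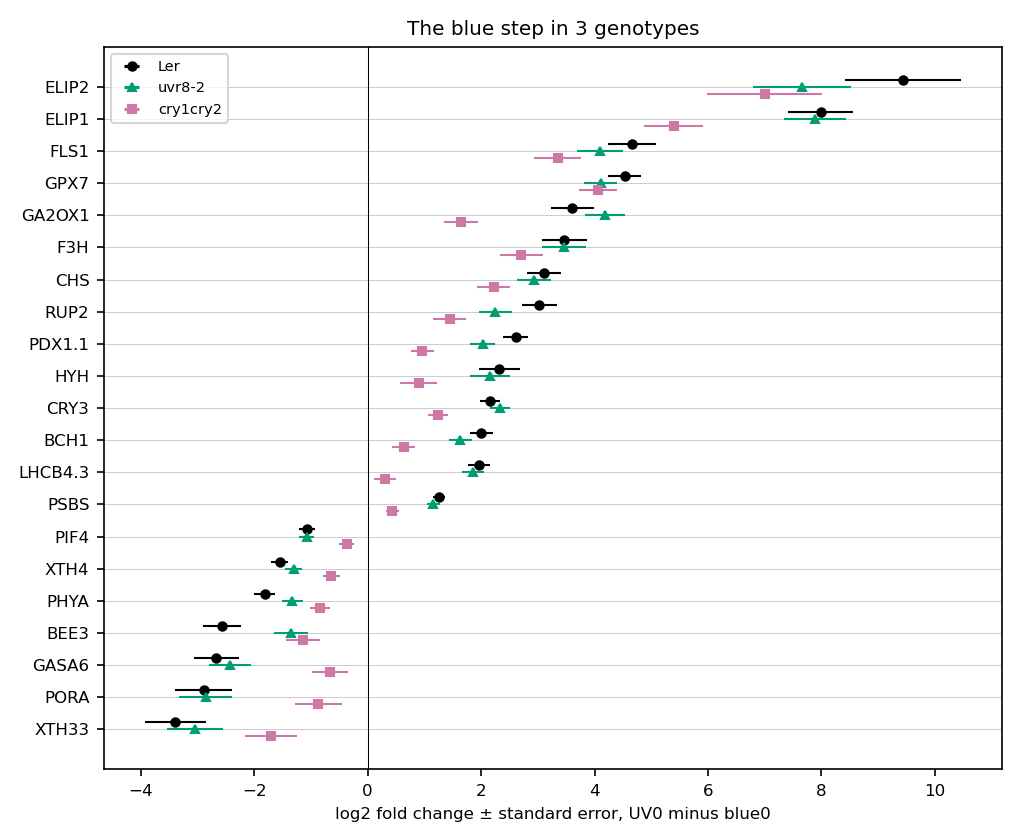
Log2 fold change ± standard error, UV0 minus blue0, of 21 genes in Ler (black circles), uvr8-2 (green triangles) and cry1cry2 (pink squares), 2 libraries per filter in each. For each gene drawn the cry1cry2 value lies between 0 and the Ler value, as for 79 of the 82 named genes called in Ler. PHYE, DIN4 and AT1G47606 are the exceptions. These genes were named by their Ler values, so the choice itself favours values nearer 0 in other libraries, and the count is no separate result. In uvr8-2 the medians were also nearer 0 than in Ler, at 0.51 against 0.64 over the Ler rises and -0.44 against -0.56 over the falls.

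Under the filters that also let UV through, the genes of the blue step took different courses in Ler. These comparisons share the UV0 libraries with the blue step, so their values are given side by side. From blue0 through UV0 to UVA+B, the filter that passes all of these bands by its name, CHS stood at 97.8 ± 5.6, 844 ± 178 and 5189 ± 153 CPM. ELIP1 stood at 2.02 ± 0.40, 515 ± 123 and 5496 ± 568 CPM, and MYB12 at 0.05 ± 0.08, 2.19 ± 0.78 and 90.0 ± 10 CPM. HY5 stood at 5.09 ± 0.22, 17.0 ± 2.5 and 65.5 ± 5.6 CPM. In each of these genes the 3 filters kept that order, and UVA+B minus UV0 was called, by 2.62 ± 0.30 for CHS, 3.42 ± 0.43 for ELIP1, 5.31 ± 0.45 for MYB12 and 1.95 ± 0.25 for HY5 (edgeR's quasi-likelihood test). PHYA stood at 128 ± 34, 36.3 ± 3.7 and 31.3 ± 1.4 CPM, and its UVA+B minus UV0 value was not called (-0.21 ± 0.18). CIB1 was at 13.4 ± 1.0, 0.04 ± 0.06 and 0 CPM. PIF4 stood at 77.3 ± 10.9, 36.9 ± 4.2 and 22.8 ± 3.9 CPM, and PSBS at 1558 ± 31, 3737 ± 50 and 6093 ± 280 CPM. From UV0 to UVA350, the filter next to UV0 in name, none of these 8 genes was called, with values between -0.73 (MYB12) and 2.83 (CIB1, at 0.29 ± 0.32 CPM).

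**Figure D5:**
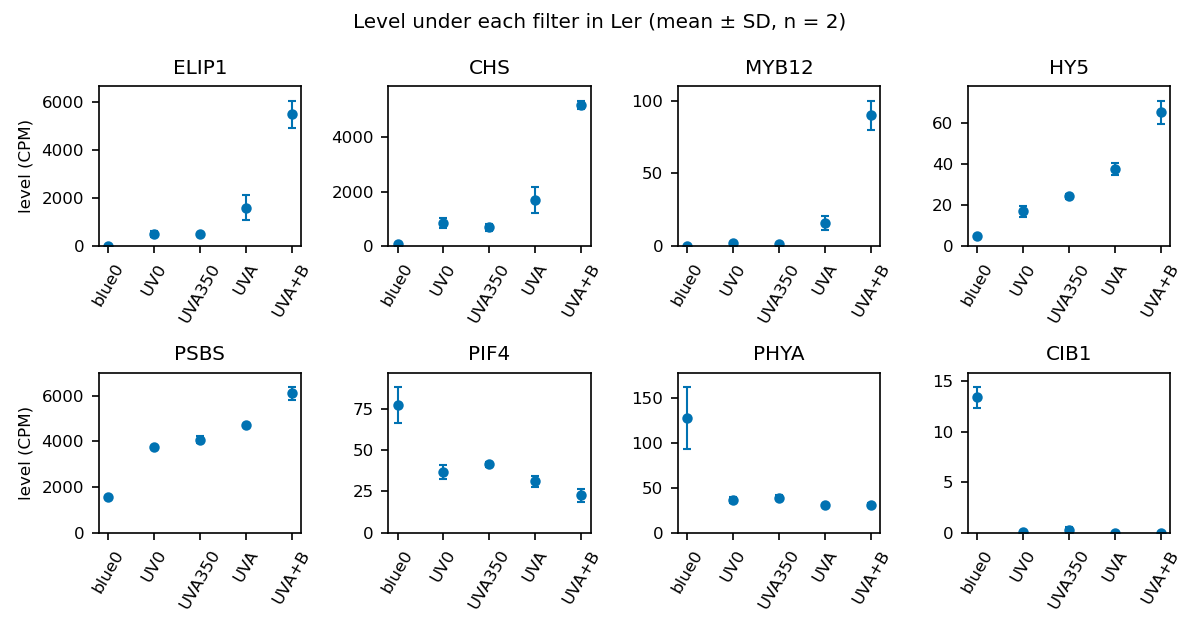
Level of 8 genes in Ler (CPM, linear axis from 0) under the 5 filters, as mean ± SD of 2 libraries. CHS, ELIP1, MYB12 and HY5 are lowest under blue0 and highest under UVA+B, while PHYA and CIB1 are high under blue0 and low under the other 4 filters.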

How the data were processed

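RNA-seq measured transcript levels in whole rosettes. The table that the authors deposited holds estimated counts for 34212 loci, and all of its columns were used. FastQC, Trimmomatic 0.33 and kallisto are named in the submitters' processing notes. The sources used here give neither their roles nor the kallisto version, the transcriptome, the genome build or the strand setting, although the kit was stranded per the labels' protocols. Groups were taken from the titles.

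After rounding to whole numbers, the tests used edgeR 4.0.16 in R 4.3.3, with TMM factors (0.927 to 1.11), filterByExpr (19980 genes left) and a robust quasi-likelihood model with 1 coefficient per group over all 30 libraries (15 residual degrees of freedom, common biological coefficient of variation 0.125). A call needed an adjusted p (Benjamini-Hochberg) under 0.05 and no minimum fold. Since all plants stood outdoors on 1 day, p-values reflect only the spread between these pooled libraries. Replicates differed by more than sampling noise in both Ler groups (chi-square per degree of freedom 11.4 for UV0 and 10.7 for blue0). The 27 gene lists (325 loci), the groups and the rule for naming genes were chosen with earlier results of these data known, and lists are described by counts and medians with no test. Named genes were, in each direction, the 12 called genes of largest fold change (mean of at least 5 CPM in the higher group, libraries not overlapping), up to 3 members of each list with the smallest adjusted p, and the 5 genes with the largest called difference between cry1cry2 and Ler among those with at least 5 CPM in the highest of the 4 groups, plus chosen light-signalling genes. Other list members are given as values of their list. Exact intervals cover counting error only. Reads of near-identical or overlapping genes may be shared.

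Symbols and 250-base promoter windows came from RefSeq's TAIR10.1 annotation by locus code (97.7% of loci matched), and not every window with a motif is reported here. The code was tested on simulated counts, in which 73 genes were changed 1.5-fold, 63 genes 2-fold and 64 genes 4-fold. These are far fewer than the 3624 genes called at the blue step in Ler. For the blue step in Ler, over 19778 genes, edgeR recovered 20.6% of the genes given a 1.5-fold change, 69.8% at 2-fold and 92.2% at 4-fold, with 7 false calls. The test of cry1cry2 against Ler recovered 2.74%, 28.6% and 82.8%. Alternatives were DESeq2 1.42.0, RLE scaling, other filters, fits on fewer libraries, a replicate block and leaving out each library.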

Additional observations from a re-analysis of the deposited data

Results flagged for a closer look

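The blue step differed between cry1cry2 and Ler in 109 genes by the test of the difference itself (edgeR's quasi-likelihood test, Benjamini-Hochberg adjusted p under 0.05). The values of 8 of them are given here. The difference, cry1cry2 minus Ler on the log2 scale, was -0.82 for PSBS, -0.69 for OHP2, -1.37 for BCH1, -1.65 for LHCB4.3, -1.64 for PDX1.1 and -1.78 for AT5G55570, all of which rose in Ler. It was 1.94 for AT1G47606 and 1.67 for AT1G25230, both of which fell in Ler. AT5G55570 measured 51.1 and 47.5 CPM under UV0 and 8.06 and 8.71 CPM under blue0 in Ler, and 19.6 ± 2.3 against 11.6 ± 2.7 CPM (mean ± SD, n = 2) in cry1cry2. OHP2 measured 89.2 ± 4.7 CPM under UV0 and 69.9 ± 9.5 CPM under blue0 in cry1cry2. The difference of OHP2 was not called with any of the 8 libraries of the contrast left out (-0.55 to -0.82), and that of AT5G55570 was not called without cry1cry2 UV0 replicate 1 (-1.66) or Ler blue0 replicate 1 (-1.72).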

How the results depend on the processing

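The 3624 calls at the blue step in Ler stayed within 1.5 times under DESeq2 (3501), RLE scaling (3591), no filter (3116), a 1 CPM filter (3663) and fits on fewer libraries (3530 and 3767), and ranged from 1655 to 2323 with 1 library left out. The uvr8-2 count of 3046 was 1303 on its own 4 libraries and 1382 on the libraries of its genotype, and 1649 to 2230 with 1 library left out. The cry1cry2 count of 35 was 99 by DESeq2, 54 on its 4 libraries, 5 on its genotype's libraries and 3 to 53 with 1 library left out. The 109 differences between cry1cry2 and Ler were 369 by DESeq2, 232 on the libraries of the contrast, 205 on those of both genotypes and 1 to 91 with 1 library left out. The cause of these moves was not tested, but leaving out a library leaves 1 in its group. The difference between uvr8-2 and Ler was called in 0 genes in every setting run. All 100 named genes kept their direction and call under RLE scaling and the 1 CPM filter, and 98 under DESeq2. The uncalled PRR9 and UVR3 changed sign, ranging from -0.68 to 0.85 (PRR9) and from -0.38 to 0.46 (UVR3) with 1 library left out.

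The labels do not say that a replicate number marks the same field blocks, so libraries share only a number. Deviations of same-numbered libraries correlated at 0.114 between Ler UV0 and Ler blue0, and at 0.026 to 0.435 (median 0.178) over all pairs of groups. With the replicate number as a block, calls numbered 4954 in Ler, 4390 in uvr8-2, 121 in cry1cry2 and 503 for the difference between cry1cry2 and Ler.

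Among genes changed at least 2-fold, the shares of windows with a motif moved to 11.3% (G-box), 54.4% (ACGT core) and 5.26% (evening element) for rises, and to 5.56% (G-box), 16.7% (I-box) and 2.43% (evening element) for falls. Adding the 50 bases after the start, an alternative chosen after seeing the data, gave 9.98% (G-box), 50.7% (ACGT core), 14.2% (I-box) and 4.19% (evening element) for rises and 9.64% (G-box), 52.0% (ACGT core) and 17.8% (I-box) for falls, against 8.78%, 50.3%, 14.9% and 3.09% over all genes for the 4 motifs. In the simulation most 1.5-fold changes were missed, but it changed far fewer genes than were called here. The adjusted p depends on the share of changed genes, so the simulation does not give the share missed at the blue step in Ler. There, 1536 of the higher and 1397 of the lower calls were under 2-fold. Levels below a few counts limit folds such as those of CIB1 and MYB12.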

Other observations

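Further groups of plastid metabolism were assembled after their values had been seen, and are given as a description only. Of 16 Calvin-Benson cycle genes 13 rose and 0 fell at the blue step in Ler, with a median of 0.65 against -0.01 over all genes tested. FBA1, a plastid aldolase, measured 2389 and 2258 CPM under UV0 and 774 and 759 CPM under blue0 (1.60 ± 0.14). GAPB, the plastid glyceraldehyde phosphate dehydrogenase subunit, measured 3395 and 3494 CPM against 1199 and 1220 CPM (1.51 ± 0.15), and SBPASE, a bisphosphatase of the cycle, rose by 1.12 ± 0.12. In these genes the replicates of each filter lay close together and the filters did not overlap. Of 14 photorespiration genes 11 rose and 0 fell, with a median of 0.63. GLDP1, the P protein of glycine decarboxylase, measured 3643 and 3307 CPM under UV0 and 934 and 930 CPM under blue0 (1.90 ± 0.21), and GLU1, ferredoxin-dependent glutamate synthase, rose by 1.13 ± 0.13.

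Of 6 fatty acid desaturases 5 rose and 0 fell, with a median of 0.70. FAD8, a plastid omega-3 desaturase, measured 211 and 214 CPM under UV0 and 53.0 and 60.6 CPM under blue0, and rose by 1.90 ± 0.13 (edgeR quasi-likelihood, adjusted p = 1.55e-08). Of 4 vitamin B6 genes 3 rose, with a median of 2.46. PDX1.1 measured 661 and 686 CPM against 93.8 and 127 CPM, PDX1.3 rose by 2.33 ± 0.18 and PDX2 by 2.58 ± 0.20, while PDX1.2, a pseudoenzyme, was not called (-0.30 ± 0.24). Between cry1cry2 and Ler the step differed by the test in 3 Calvin-Benson genes, 3 photorespiration genes, 2 desaturases and 3 vitamin B6 genes by edgeR, and in 10, 8, 3 and 3 by DESeq2. For FAD8 it was -1.47 ± 0.18 (adjusted p = 0.000983).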
